A study of Mus musculus with 4 samples.

Results

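Meiotic crossovers are reciprocal exchanges between homologous chromosomes, and 9 genes of the machinery that forms them were chosen by symbol from the gene table of cultured pachytene spermatocytes. A row was found for 8 of the 9 among 23420 gene rows, namely Msh4, Msh5, Mlh3, Ccnb1ip1, Hfm1, Tex11, Cntd1 and Mus81, and the level of Rnf212 was not analysed here. Wild-type (WT) pachytene spermatocytes from the testis of C57BL/6 mice of 23 weeks of age were isolated by FACS on a DNA dye and cultured for 24 h. DMSO was added to the Ctrl cultures, and the treated cultures received AZ20, which inhibits the ATR kinase, at 10 μM. There were 2 libraries in each condition. The study used the comparison to examine whether ATR activity is needed to keep the sex chromosomes silent, and here it is read for the crossover genes. By the methods both conditions were set up from the same mouse's testicular cells in each experiment. Libraries of the same replicate number were therefore taken as a pair, though the methods do not state that the numbers match. Each library was made from 15000 cells. The culture temperature is 34 °C in the labels and 32 °C in the methods.

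Recombination in meiosis starts with programmed DNA breaks, whose repair on the homologous chromosome can end as a crossover. In mammals most crossovers depend on the ZMM proteins. MSH4 and MSH5 form a heterodimer that holds recombination intermediates, HFM1 is a DNA helicase, and TEX11 is the mammalian relative of yeast Zip4. RNF212 and HEI10, the product of Ccnb1ip1, are RING domain proteins linked to SUMO and ubiquitin that select the sites that become crossovers together with CNTD1, a cyclin-related protein. MLH3 belongs to the MutL endonuclease that marks crossover sites in mid-late pachytene. A minor class of crossovers is made by the structure-selective nuclease MUS81. The Tex11 gene lies on the X chromosome, which is silenced in pachytene spermatocytes by meiotic sex chromosome inactivation (MSCI), while the other members are autosomal.

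RNA levels are given as TPM, the share of a library's transcripts that a gene takes, a value per gene length that can be set side by side between genes, and the reads behind it were recovered from the steps between TPM values. The libraries held 13556527 to 19650081 reads on genes. For 10316 genes with a mean above 1 TPM in either condition, limma was fitted to log2(TPM + 1). A gene was called when the Benjamini-Hochberg adjusted p was under 0.05 and the change reached 2-fold. Spermatocyte markers summed to between 7832 and 8812 TPM in every library, with 0 of 10 called. Sox9 and Wt1 of Sertoli cells, Cyp17a1, Cyp11a1, Insl3 and Hsd3b1 of Leydig cells and Dmrt1 and Sohlh1 of spermatogonia were at 0 in all libraries. Summed levels in any library were at most 0.651 TPM for Sertoli, 2.31 TPM for Leydig, 2.26 TPM for macrophage and 1.76 TPM for peritubular myoid markers. Spermatogonial markers summed to 7.99 to 20.5 TPM and those of leptotene and zygotene to 93.1 to 111 TPM. Most of the first sum was Uchl1 (7.60 to 20.1 TPM) and most of the second was Spo11 (86.1 to 103 TPM). Prdm9, Stra8, Rec8 and Dmc1 of the second list were below 1 TPM in every library. The 6 round spermatid markers summed to 365 and 149 TPM in Ctrl replicates 1 and 2 and to 771 and 251 TPM in AZ20 replicates 1 and 2. An exact permutation test of 2 libraries against 2 cannot give a two-sided p below 0.33. In bulk samples fewer cells of a type and less RNA per cell cannot be told apart.

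In Ctrl the members' levels differed widely. Cntd1 and Ccnb1ip1 were highest, at 151 ± 5.74 and 128 ± 19.2 TPM (SD, n = 2), above 89.1% and 87.5% of the tested genes. Hfm1 followed at 29.5 ± 2.74 TPM (SD, n = 2). Mlh3, Msh4, Mus81 and Msh5 lay lower, at 11.1 ± 2.90, 10.7 ± 0.874, 7.39 ± 1.65 and 4.07 ± 0.813 TPM (SD, n = 2), around the median of 9.22 TPM over all tested genes. Tex11 was lowest at 0.317 ± 0.448 TPM (SD, n = 2). Of the neighbours in this order, Mlh3 and Msh4 had overlapping libraries, and the other neighbours did not overlap. With AZ20 the order was Ccnb1ip1, Cntd1, Hfm1, Msh4, Mlh3, Tex11, Msh5 and Mus81, and the libraries of Mlh3 and Tex11 and those of Msh5 and Mus81 overlapped. Tex11 thus moved from the foot of the order to the level of Mlh3, and Mus81 moved to the foot.

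**Figure D1:**
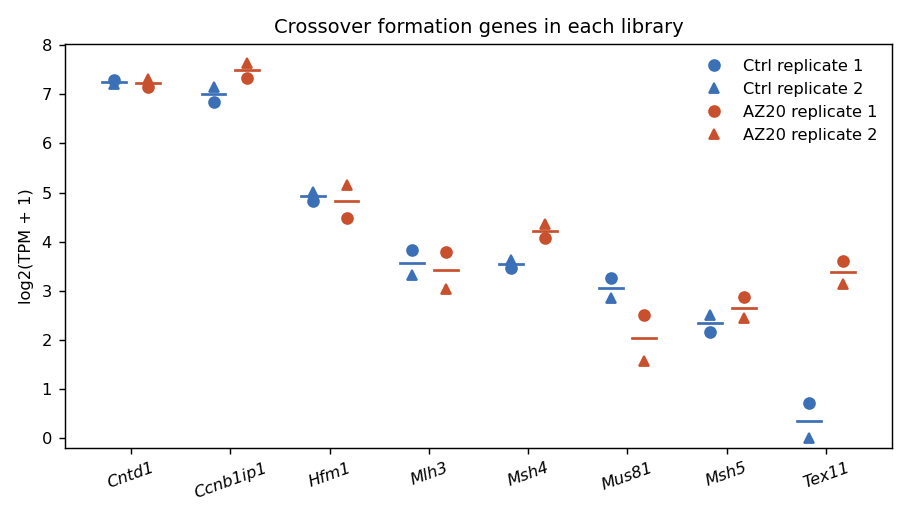
Level of each crossover formation gene, as log2(TPM + 1), in the Ctrl (blue) and AZ20 (red) libraries, with circles for replicate 1, triangles for replicate 2 and bars for the mean of each condition. Tex11 is near 0 in both Ctrl libraries and overlaps the level of Mlh3 in the AZ20 libraries, while Cntd1 is alike in all 4.

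Of the 8 members, 1 was called higher with AZ20, namely Tex11, and 0 were called lower. Over all tested genes 2.28% were called higher and 0.0485% lower. At an unadjusted p under 0.05, 3 members were higher (Tex11, Msh4 and Ccnb1ip1) and 1 was lower (Mus81), which makes 4 of 8 against 9.16% of all tested genes. The same counts were obtained with limma's voom fit on the recovered reads, which called 1 member higher and 0 lower. Because the members were chosen with earlier results of these data known, these shares and those below are a description. The background differs between chromosomes, since 63.3% of the 341 tested X-linked genes were called higher but only 0.101% of the 9936 autosomal genes, and 0.0503% of autosomal genes were called lower. Of these X-linked genes 288, Tex11 among them, passed the filter on low values through AZ20 alone, so the set favours genes that are higher with AZ20. With no expression filter 28.9% of 643 X-linked genes were called higher. Among the 7 autosomal members 0 were called in either direction, and 3 had an unadjusted p under 0.05, against 6.34% of autosomal genes and 88.9% of X-linked genes. With the replicate number as a block in limma, 1 of the 7, Mus81, was called lower, against 0.231% of autosomal genes. The libraries of the conditions did not overlap for 4 of the 8 members, with AZ20 above for 3, where 38.1% of all tested genes did not overlap and 26.4% had AZ20 above. For the autosomal members this was so for 3 of 7, against 36.2% of autosomal genes. Their median log2 change was -0.01, against 0.06 over all tested autosomal genes and 2.61 over the tested X-linked genes (0.88 over the 643 with no expression filter).

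**Figure D2:**
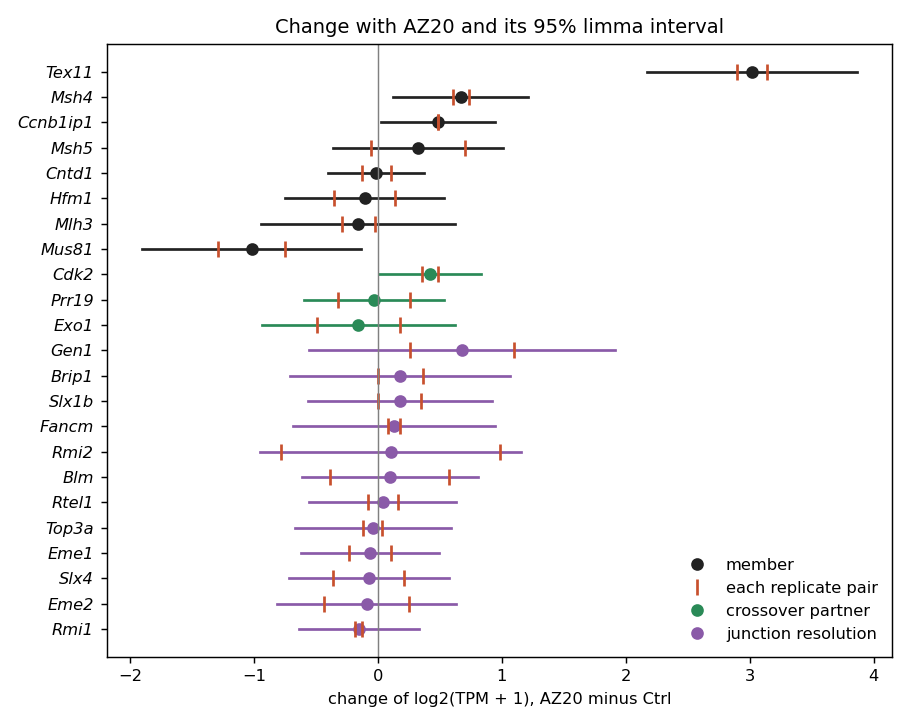
Change of log2(TPM + 1) with AZ20 (points) and its 95% limma interval (lines) for the 8 crossover formation genes, 3 crossover partner genes and 12 genes of joint molecule resolution, with red ticks for each replicate pair. Tex11 stands at 3.02, Mus81 at -1.02 has both ticks below 0, and the intervals of the other genes include 0 except those of Msh4, Ccnb1ip1 and Cdk2.

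Tex11 spans 100838648 to 101059667 on the minus strand of the X chromosome of GRCm38. It had 0.634 TPM on 23 reads in Ctrl replicate 1 and 0 TPM on 0 reads in Ctrl replicate 2. In AZ20 replicates 1 and 2 it had 11.2 TPM on 584 reads and 7.82 TPM on 369 reads. Both AZ20 libraries were far above both Ctrl libraries, and replicate 1 was the higher one in each condition. The mean was 9.50 ± 2.37 TPM (SD, n = 2) with AZ20, 30.0 times the Ctrl mean. Within pairs the level was 17.6-fold higher in the first and at least 108-fold higher in the second, where the Ctrl library was set to 3 reads (0.0724 TPM). The log2 change was 3.02 (standard error 0.36, limma adjusted p = 0.00433), and it was 2.90 and 3.14 in the pairs. This call depended on the settings, and it was lost with a pseudocount of 0.1 (limma adjusted p = 0.0663) or 0.01 (0.341), with no expression filter (0.0623), without Ctrl replicate 2 (0.0555) and without AZ20 replicate 1 (0.271) or 2 (0.20). Without either AZ20 library 0 of all genes tested were called, with 714 higher and 210 lower at an unadjusted p under 0.05 without replicate 1, and 724 higher and 75 lower without replicate 2. With the replicate number as a block the limma adjusted p was 1.1e-09, in a fit that called 4.11% of all genes higher and 0.223% lower. That fit has few libraries to estimate a gene's own spread, so its p rests mainly on variance shared across genes.

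Among the 643 X-linked genes with reads in any library, 146 had a larger log2 change than Tex11 and 77.1% had a smaller one. All 146 are also among the 341 tested, of which 56.9% had a smaller change. A gene with means of at most 1 TPM could not reach the change of Tex11, so such genes raise the share over the 643. Of the tested genes, 112 had a higher Ctrl mean than Tex11 and 142 a higher AZ20 mean. The tested X-linked genes with the most similar levels over the 4 libraries, by Euclidean distance of log2(TPM + 1), were Xlr4b, Efhc2 and Pgrmc1, at distances of 0.47, 0.50 and 0.50. Xlr4b, a gene of the Xlr family, had 0.308 and 0.269 TPM in Ctrl and 11.2 and 7.93 TPM with AZ20. Because AZ20 levels entered the choice of these 3 genes, their changes of 3.02, 3.21 and 3.13 are a description. Of the tested X-linked genes 45, Tex11 among them, had reads in Ctrl replicate 1 and 0 in replicate 2. On the chromosome, the genes of the table next to Tex11 by RefSeq start were Dlg3, a synaptic scaffold gene, before it and Slc7a3, an amino acid transporter gene, after it. Dlg3 was at 0 TPM in both Ctrl libraries and at 0.0244 and 0 TPM with AZ20. Slc7a3 was at 0 TPM in both Ctrl libraries and at 0.667 and 0.0321 TPM with AZ20. Neither passed the filter, and both genes stayed near 0 where Tex11 did not. Both were named after their values were seen, so this is a description of these genes alone. The nearest genes that passed, Kif4 and Zmym3, entered through AZ20 alone, from 0 reads in Ctrl, at 5.52 and 2.65 TPM for Kif4 and 5.65 and 4.82 TPM for Zmym3.

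**Figure D3:**
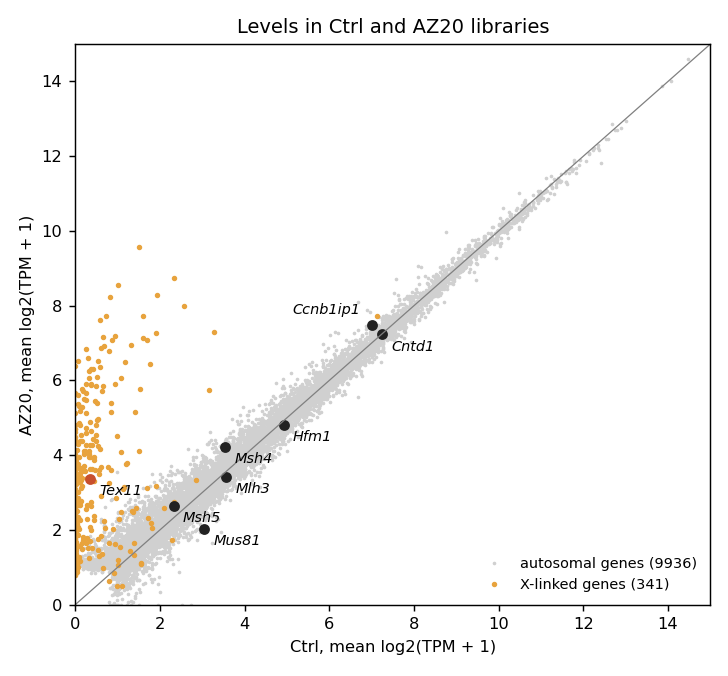
Mean log2(TPM + 1) in Ctrl (x axis) and AZ20 (y axis) of 9936 autosomal genes (grey), 341 X-linked genes (orange) and the crossover formation genes (labelled, black, with Tex11 in red), with the diagonal of equal levels. Tex11 lies inside the column of X-linked genes that rise from near 0, and the 7 autosomal members lie along the diagonal with Mus81 below it. Of the X-linked genes 288 passed the filter through AZ20 alone. An X-linked gene near 0 in Ctrl is therefore shown only if its AZ20 mean is above 1 TPM.

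To set Tex11 against the autosomal members within a library, the mean log2(TPM + 1) of the 7 was subtracted from that of Tex11. The result was -3.82 and -4.53 in Ctrl and -0.997 and -1.36 with AZ20. The gap narrowed by 2.99 on average, by 2.82 in the first pair and 3.17 in the second, and the conditions did not overlap (two-sided exact permutation test, p = 0.33, the smallest it can give with 2 libraries against 2).

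Msh4 and Msh5 encode the subunits of 1 heterodimer. Msh4 spans 153857149 to 153906138 on chromosome 3 and Msh5 35028605 to 35046745 on chromosome 17 (GENCODE spans on GRCm38, as for every member, both minus strand). Msh4 had 10.1 and 11.3 TPM in Ctrl and 15.9 and 19.5 TPM with AZ20, on 339 to 850 reads. Its AZ20 libraries were both above its Ctrl libraries, which was also so for 24.1% of the tested autosomal genes. The mean was 1.65 times that of Ctrl. The log2 change was 0.67 (95% interval 0.12 to 1.21, limma adjusted p = 0.400), so Msh4 was not called. Msh5 had 3.49 and 4.64 TPM in Ctrl and 6.30 and 4.42 TPM with AZ20, on 102 to 265 reads, and the conditions overlapped. Its log2 change was 0.32 (95% interval -0.36 to 1.01, limma adjusted p = 0.831), with 0.70 in the first pair and -0.06 in the second. Without AZ20 replicate 1 it was 0.11 and without AZ20 replicate 2 it was 0.54.

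The transcripts of the 2 subunits were not equally abundant. Msh4 was 2.89 and 2.44 times as high as Msh5 in Ctrl and 2.52 and 4.40 times as high with AZ20. On the scale of log2(TPM + 1) the subunits differed in Ctrl by 1.22 ± 0.125 (SD, n = 2), and with AZ20 by 1.56 ± 0.501 (SD, n = 2) (two-sided exact permutation test, p = 0.667). The higher ratio with AZ20 came from AZ20 replicate 2, and without it the change of the ratio was -0.0087 instead of 0.35.

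Start regions are shown for these 2 subunits, and for Ccnb1ip1 and Mus81, because Msh4, Ccnb1ip1 and Mus81 were the autosomal members whose conditions did not overlap. Each runs 5′ to 3′ on the minus strand, with 250 bases before and 50 after a start listed for the gene, on GRCm38.p6. All 4 of these starts lie inside the GENCODE spans, that of Ccnb1ip1 the furthest and that of Msh4 next. Those of Msh4 and Mus81 also lie inside the RefSeq spans, which end at 153906138 and 5488389. The whole Msh4 region is inside its RefSeq span, so it is not at the outermost start of the gene. Capitals mark CAACNG or TAACNG, sought on both strands, which are letters bound by MYB proteins such as A-MYB, a transcription factor of pachytene spermatocytes. The regions are chr3:153904842-153905141 for Msh4, chr17:35046573-35046872 for Msh5, chr14:50795679-50795978 for Ccnb1ip1 and chr19:5488330-5488629 for Mus81.
Msh4: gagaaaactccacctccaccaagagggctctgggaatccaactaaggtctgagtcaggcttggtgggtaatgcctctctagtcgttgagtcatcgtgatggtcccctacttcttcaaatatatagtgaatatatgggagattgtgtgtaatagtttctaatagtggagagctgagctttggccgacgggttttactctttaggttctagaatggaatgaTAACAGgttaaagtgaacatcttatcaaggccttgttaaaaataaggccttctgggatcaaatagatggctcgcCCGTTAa
Msh5: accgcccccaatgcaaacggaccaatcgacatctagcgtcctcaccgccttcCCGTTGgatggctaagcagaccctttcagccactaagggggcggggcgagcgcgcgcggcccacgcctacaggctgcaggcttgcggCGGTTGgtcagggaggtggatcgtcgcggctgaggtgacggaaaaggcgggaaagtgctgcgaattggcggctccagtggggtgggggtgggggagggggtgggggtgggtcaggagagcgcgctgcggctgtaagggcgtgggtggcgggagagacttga
Ccnb1ip1: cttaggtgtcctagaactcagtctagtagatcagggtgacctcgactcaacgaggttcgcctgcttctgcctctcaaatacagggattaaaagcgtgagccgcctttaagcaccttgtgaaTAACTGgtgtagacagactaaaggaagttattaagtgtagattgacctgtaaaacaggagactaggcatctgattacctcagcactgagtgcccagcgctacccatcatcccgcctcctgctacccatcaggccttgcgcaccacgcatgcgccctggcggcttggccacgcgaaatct
Mus81: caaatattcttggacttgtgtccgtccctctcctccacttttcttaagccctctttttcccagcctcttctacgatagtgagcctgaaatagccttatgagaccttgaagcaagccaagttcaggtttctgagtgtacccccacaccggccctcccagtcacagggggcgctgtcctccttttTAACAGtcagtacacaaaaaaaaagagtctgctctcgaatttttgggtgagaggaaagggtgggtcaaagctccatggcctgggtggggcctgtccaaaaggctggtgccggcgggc
Msh4 and Msh5 had 2 matches each and Ccnb1ip1 and Mus81 had 1 each. A match was found in 5 of the 8 members with a start region in the reference table, which are Rnf212 and the 7 autosomal members with a level, as Tex11 is not listed, against 49.7% of all 32851 start regions of this length. The CRE letters TGACGTCA were found in 0 of the 8 and in 1.79% of all regions, and the TATA box letters TATAAA in 0 of the 8 and in 13.6%. Matches to CCAAT were found in 4 of the 8 and to GGGCGG in 4, against 37.4% and 35.7% of all regions. The Msh5 region was richer in G and C than that of Msh4, at 67.3% against 43.3%, around a median of 52.7% over all regions. These are matches of letters and no binding was measured.

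Ccnb1ip1, which encodes HEI10, spans 50789248 to 50807732 on chromosome 14. It had 115 and 142 TPM in Ctrl and 161 and 199 TPM with AZ20, on 1744 to 3936 reads. Both AZ20 libraries were above both Ctrl libraries, and the pairs gave nearly the same change, 0.49 in each. The level was 1.40 times that of Ctrl, with a log2 change of 0.49 (95% interval 0.02 to 0.95), but it was not called (limma adjusted p = 0.519). Rpph1, the RNA of RNase P, shares 12.4% of the GENCODE exon bases of Ccnb1ip1 but 0 bases of the Ccnb1ip1 RefSeq span, and was at 0.915 to 6.14 TPM. Cntd1, whose product acts with HEI10, spans 101279012 to 101296317 on chromosome 11 and was the member that moved least. It had 155 and 147 TPM in Ctrl and 142 and 158 TPM with AZ20, on 3489 to 4616 reads. The conditions overlapped and the log2 change was -0.01 (95% interval -0.40 to 0.37, limma adjusted p = 0.993). Becn1, an autophagy gene on the other strand, shares 70.2% of the GENCODE exon bases of Cntd1, but the RefSeq spans of the 2 genes share 444 bases. Becn1 had 138 and 135 TPM in Ctrl and 131 and 115 TPM with AZ20. Strand was not given for the counting, so Cntd1 is uncertain where reads of the 2 genes could not be separated. Coa3, also on the other strand, shares 1.85% of the GENCODE exon bases of Cntd1 and 0 bases of its RefSeq span. It was at 953 to 1099 TPM.

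Hfm1, the helicase, spans 106840192 to 106926321 on chromosome 5. It had 27.6 and 31.4 TPM in Ctrl and 21.3 and 34.8 TPM with AZ20, on 1478 to 2423 reads, so that the AZ20 libraries lay on both sides of the Ctrl libraries. The log2 change was -0.11 (95% interval -0.75 to 0.53, limma adjusted p = 0.955). Mlh3, of the MutL endonuclease, spans 85234520 to 85270599 on chromosome 12. It had 13.1 and 9.02 TPM in Ctrl and 12.9 and 7.19 TPM with AZ20, on 512 to 1015 reads. Replicate 1 was higher than replicate 2 in both conditions, by more than either condition differed from the other. The log2 change was -0.16 (95% interval -0.94 to 0.62, limma adjusted p = 0.940).

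Mus81 was the only autosomal member whose AZ20 libraries were both below its Ctrl libraries, as were those of 12.2% of the tested autosomal genes. The gene spans 5482345 to 5488402 on chromosome 19. It had 8.55 and 6.22 TPM in Ctrl and 4.69 and 1.95 TPM with AZ20, on 172, 143, 136 and 51 reads. The AZ20 mean was 0.450 times the Ctrl mean. The log2 change was -1.02 (95% interval -1.90 to -0.14) and it was not called (limma adjusted p = 0.450). With the replicate number as a block Mus81 was called lower (limma adjusted p = 0.0282), in a fit that called 0.231% of autosomal genes lower and 1.35% higher. It was not called by voom on the recovered reads, without the block (limma adjusted p = 0.428) or with it (0.131). The change was -0.75 in the first pair and -1.29 in the second, and -0.54 without AZ20 replicate 2, which had the fewest reads. Efemp2 on the other strand shares 4.85% of the Mus81 GENCODE exon bases and 0 bases of its RefSeq span, and was at 0 to 1.46 TPM.

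MUS81 acts with the partner subunits EME1 and EME2 and with the scaffold SLX4. Eme1 had 8.67 and 9.81 TPM in Ctrl and 9.38 and 8.21 TPM with AZ20. Eme2 had 7.82 and 7.52 TPM in Ctrl and 9.50 and 5.31 TPM with AZ20. Slx4 had 7.14 and 4.92 TPM in Ctrl and 5.34 and 5.86 TPM with AZ20. The conditions overlapped for all 3 of them, and their log2 changes were -0.06, -0.09 and -0.07 (limma adjusted p = 0.970, 0.966 and 0.972). The fuller list of genes that resolve or take apart joint molecules also held the nuclease genes Slx1b and Gen1, the Bloom helicase gene Blm with Top3a, Rmi1 and Rmi2 of its complex, and the helicase genes Rtel1, Fancm and Brip1. All 12 were tested, 0 were called in either direction by limma or by voom, and 0 had an unadjusted p under 0.05. Their log2 changes ran from -0.15 (Rmi1) to 0.68 (Gen1) with a median of 0.07, which is also the median over all tested genes. Gen1, the Holliday junction resolvase, had 0.423 and 2.98 TPM in Ctrl and 2.05 and 3.76 TPM with AZ20, on 14 to 162 reads, and Ctrl replicate 1 stood apart from the other 3 libraries. Its 95% interval, -0.56 to 1.92, was the widest of the list.

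Of 7 further genes that act with the members in crossover formation, 3 had a row under the symbol sought. Shoc1, Spo16, Rnf212b and Redic1 were not analysed here, and a row under another symbol is not excluded for them. By limma and by voom 0 of the 3 were called, and 1 was higher at an unadjusted p under 0.05. That gene was Cdk2, whose kinase sits at late recombination sites. It had 77.2 and 79.5 TPM in Ctrl and 99.0 and 112 TPM with AZ20, and the conditions did not overlap. The log2 change was 0.42 (95% interval 0.01 to 0.83, limma adjusted p = 0.536). With the replicate number as a block, 0 of the 3 genes had an unadjusted p under 0.05 by limma or by voom. Prr19, whose product is a partner of CNTD1, had 20.5 and 28.8 TPM in Ctrl and 24.7 and 22.9 TPM with AZ20 (log2 change -0.03, limma adjusted p = 0.987). Exo1, an exonuclease, had 2.95 and 2.90 TPM in Ctrl and 3.46 and 1.77 TPM with AZ20 (log2 change -0.16, limma adjusted p = 0.940).

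Differences between the replicate numbers were of the size of the changes with AZ20 for several autosomal members. Replicate 1 minus replicate 2 had the same sign in Ctrl and AZ20 for 6 of the 8 members, compared with 52.0% of all tested genes. Mlh3 differed by 0.50 in Ctrl and 0.76 with AZ20 on the log2(TPM + 1) scale, and Mus81 by 0.40 and 0.95. Hfm1 and Ccnb1ip1 went the other way, at -0.18 and -0.68 for Hfm1 and -0.30 and -0.30 for Ccnb1ip1. Msh5 and Cntd1 changed sign between the conditions. The summed round spermatid markers were also higher in replicate 1 of each condition, as were 5 of the 6 taken singly (not Acrv1). Their sum was also higher with AZ20 in both pairs, though 0 of the 6 were called. The part of these markers in the replicate differences and in the changes with AZ20 was not tested.

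**Figure D4:**
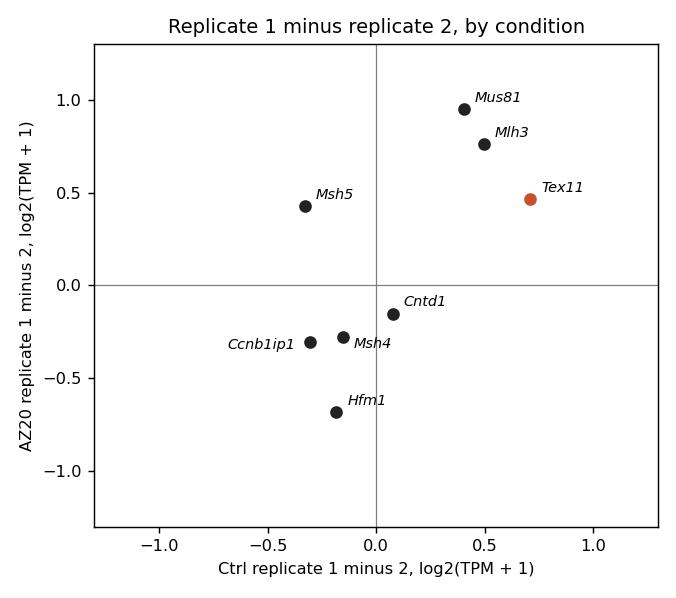
Replicate 1 minus replicate 2 of log2(TPM + 1) within Ctrl (x axis) and within AZ20 (y axis) for the 8 members. Mus81, Mlh3 and Tex11 were higher in replicate 1 of both conditions, Hfm1, Ccnb1ip1 and Msh4 were higher in replicate 2 of both, and Msh5 and Cntd1 lie in the other quadrants.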

How the data were processed

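RNA-seq reads were trimmed by the authors with Trimmomatic 0.39, aligned to GRCm38 with STAR 2.5.4b keeping unique alignments, and counted on the UCSC refGene annotation with featureCounts 2.0.1. The authors deposited TPM values, made from the counts, in 1 column per library for 4 libraries. The 92 blank rows were left out. Because a gene has the same length in each library, whole reads were recovered for all 16857 genes above 0 (largest deviation from a whole number 0.000162). A factor common to all reads of a gene stays hidden, so reads and depth are lowest estimates. Intervals on reads were not given, since PCR copies are not independent molecules.

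Log2(TPM + 1) was fitted with limma 3.58.1 (R 4.3.3) with an intensity trend, over genes with a mean above 1 TPM in either condition. The fit was tested on simulated data. Python 3.11.15 with pandas 2.3.3 and scipy 1.17.1 gave the other values. Symbols were placed on chromosomes with GENCODE M21 and RefSeq tables of GRCm38, and 118 were not placed. Same-numbered libraries were taken to come from 1 mouse, which the methods do not state for the numbers. Their deviations correlated at 0.23 over autosomal genes. The study's methods name no block, so the replicate number entered as an alternative. Named were all members, all genes of the lists and the X-linked genes nearest to Tex11. Dlg3 and Slc7a3 were added after their values were seen. Of the genes overlapping a member, Rpph1, Becn1, Coa3 and Efemp2 were named. Members and lists were chosen with earlier results of these data known. The methods and the labels name different HiSeq instruments.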

Additional observations from a re-analysis of the deposited data

How the results depend on the processing

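The alternatives were other pseudocounts, other filters on TPM, quantile normalization, equal autosomal totals, no trend, no fold limit, the replicate block, voom on the recovered reads with and without the block, and leaving out each library. The number of members called higher, 1 as reported, was 0 with a pseudocount of 0.1, with a pseudocount of 0.01 and with no expression filter, and 0 to 1 when a library was left out. These are the settings in which Tex11 lost its call. Its log2 change was 5.12 (pseudocount of 0.1), 6.87 (0.01) and 3.02 (no expression filter, limma adjusted p = 0.0623), and 2.67 to 3.37 when a library was left out, which leaves 1 sample in a condition whose spread is taken from the others. With the replicate block 1 member was called lower, Mus81 at -1.02, and the block changed no other call of the members or lists. The median log2 change of the autosomal members, -0.01, ran from -0.017 to 0.22 when a library was left out. Values of members near 0 changed sign. Mlh3 was at 0.09 without Ctrl replicate 1 and 0.22 without AZ20 replicate 2, Hfm1 at 0.23 without AZ20 replicate 1, and Cntd1 at 0.03 without Ctrl replicate 1, 0.06 without AZ20 replicate 1 and 0.00024 with equal autosomal totals. When a library was left out the ranges were -0.54 to 0.22 for Mlh3, -0.45 to 0.23 for Hfm1, 0.11 to 0.54 for Msh5 and -0.089 to 0.063 for Cntd1. The change of the Msh4 to Msh5 ratio ran from -0.0087 to 0.70 when a library was left out. Quantile normalization moved the median change of all genes by -0.14 and changed no call of a member. The ratio of Rnf212 to Ccnb1ip1 could not be computed. Among the members depth limits Tex11 in Ctrl, Msh5 and Mus81, while the others tested had at least 339 reads in each library. The causes of the other differences between settings were not tested.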
